A study of Mus musculus with 4 samples.

Results

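Regulators of G-protein signalling (RGS proteins) were followed in livers of male mice with polygenic obesity, with Rgs16 set against the rest of the family. The members were found as the probes outside controls whose symbol or RefSeq accession in the files belonged to Rgs16, Rgs1, Rgs2, Rgs3, Rgs4, Rgs5, Rgs10, Rgs14 or Rgs19, or whose description contained the full name of Rgs16. This gave 9 probes for 9 genes, among 20868 probes on the array. The Rgs16 probe carries no symbol in the scanner files, where it is described as similar to Rgs16. The authors' deposited table of genes past their threshold names the same probe Rgs16. Rgs16 was selected on its diet effect, the ratio of CLA over control, already seen on these arrays, so values of CLA against control for the members are given as a description. Where a limma call or adjusted p of a member is mentioned, it belongs to the fit that led to the choice and is no test of it.

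The mice had received conjugated linoleic acid of the trans-10, cis-12 form (CLA), at 1% of the diet, or linoleic acid at 1% as the control, and livers were taken on day 14. The labels give no age, strain name or genotype beyond polygenic obesity. Each sample pooled total RNA of 4 or 5 mice, and 4 two-colour Agilent oligonucleotide arrays each held 1 CLA pool and 1 control pool. On arrays 1 and 2 CLA carried Cy5, and on arrays 3 and 4 it carried Cy3. Whether arrays share a pool is not stated, so the spread between arrays may be technical. In bulk liver RNA, fewer cells of a type and less RNA per cell cannot be told apart.

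RGS proteins bind the active, GTP-loaded alpha subunit of heterotrimeric G proteins and speed up the hydrolysis of GTP. They thereby shorten the signal that a hormone or neurotransmitter sends through its receptor. Rgs16 acts on the Gi and Gq classes of alpha subunit. In mouse liver it is known from hepatocytes around the portal vein, where its transcript follows the daily cycle of feeding and fasting, responds to carbohydrate through the transcription factor ChREBP, and restrains fatty acid oxidation.

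Between 80.3% and 95.5% of spots in the CLA channel and between 85.5% and 95.8% in the control channel were well above background on each array. The 4 hepatocyte markers tested (Ttr, Apoa1, Hnf4a and Cyp2e1) were well above background in both diets on all 4 arrays. Each was brighter than at least 89.1% of the 20128 features tested. A feature here is a gene with a symbol or an unnamed probe.

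Rgs16 signal was higher with CLA on every array. Its normalized intensity with CLA was 433, 392, 622 and 336 on arrays 1 to 4. With control it was 289, 287, 276 and 204 on the same arrays. The 4 CLA values all lay above the 4 control values, with means of 446 ± 124 for CLA and 264 ± 40.2 for control (SD, n = 4 arrays). As log2 CLA over control the arrays gave 0.58, 0.45, 1.17 and 0.72 as measured. The arrays with CLA in Cy3 gave the higher pair, with a mean of 0.95 against 0.52 for the arrays with CLA in Cy5. With the gene's dye effect of -0.21 (log2 Cy5 over Cy3) taken out, the arrays stood at 0.80, 0.66, 0.96 and 0.50. The fitted diet effect was 0.73 ± 0.08 (log2, SE, n = 4 arrays), a 1.66-fold higher signal with CLA.

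The unnormalized signal of Rgs16 shows where the corrections for background and dye enter. The foreground minus the local background was 318, 335, 501 and 368 with CLA, against 336, 341, 290.0 and 147 with control. On arrays 1 and 2 this background-subtracted signal was thus slightly lower with CLA than with control. The foreground without subtraction was slightly higher with CLA there, at 633 against 630 and 661 against 650. The sign on these 2 arrays before normalization therefore depended on how background was handled. On arrays 3 and 4 the CLA signal was the higher before any normalization. The scanner software's own log10 ratio, which uses a different background and dye correction, was 0.21, 0.16, 0.40 and 0.25 on arrays 1 to 4 as CLA over control. All 4 lay above 0.

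**Figure D1:**
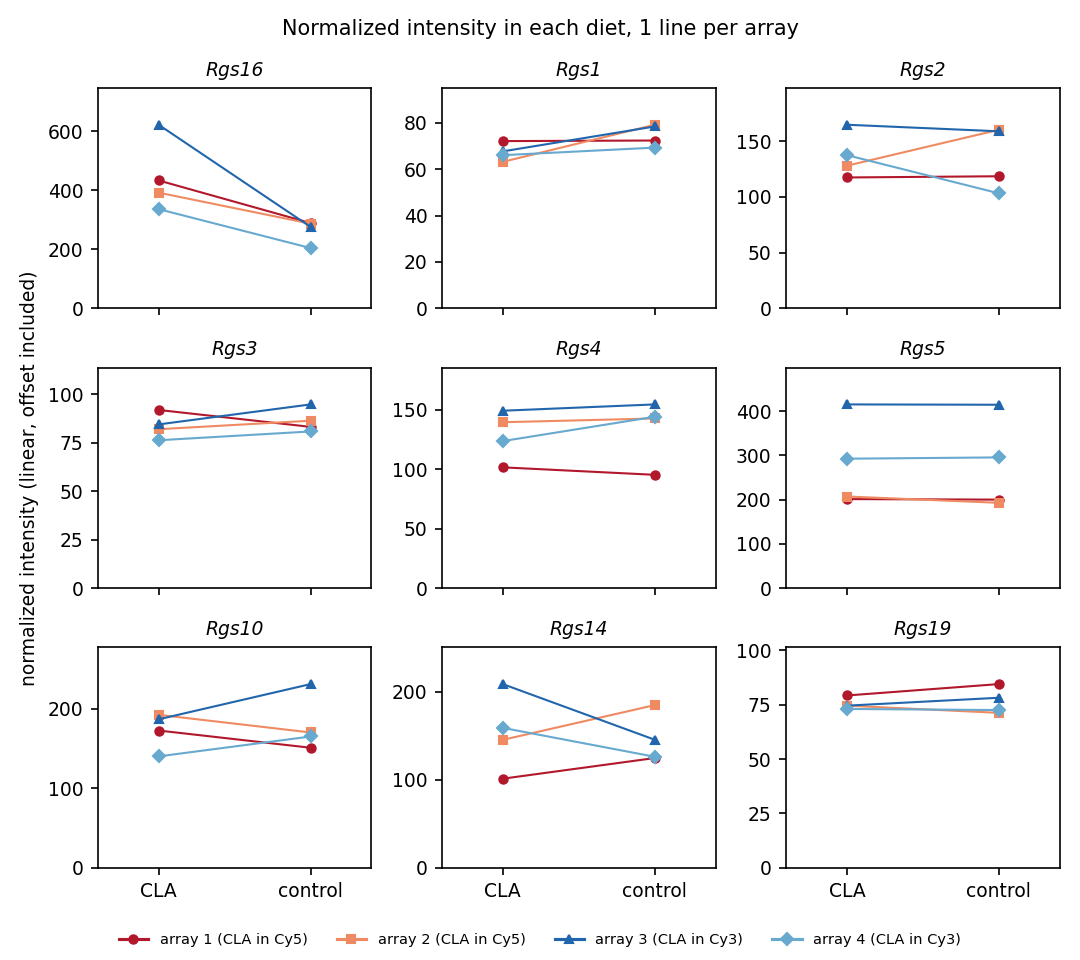
Normalized intensity of each member (linear scale from 0, offset of 50 included) with CLA on the left and control on the right, 1 line per array, coloured by array and dye orientation. Every Rgs16 line falls toward control, with CLA at 336 to 622 and control at 204 to 289, while the Rgs5 lines are nearly level.

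Rgs16 was 1 of 7 features higher with CLA at a limma adjusted p under 0.05, which is 0.0348% of the 20128 tested. This is the value that led to its choice. The other 8 members were all tested, and none of them passed. The Rgs16 diet effect was above that of 99.9% of features, at place 14 from the top. The probe was also 1 of 775 in the authors' deposited table, which lists it with a ratio of 1.65 and a p-value of 0.0015. The direction of that ratio is not labelled, but 97.0% of the table's probes had the same sign as the mean of the measured ratios of CLA over control, Rgs16 included. None of the other 8 members is listed in that table.

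Each of the other 8 members had a lower ratio than Rgs16 on all 4 arrays. As measured, the others ranged from -0.30 to 0.19 on array 1, from -0.35 to 0.18 on array 2, from -0.31 to 0.52 on array 3 and from -0.24 to 0.41 on array 4 (log2 CLA over control). Their median stayed near 0, at 0.0017, -0.05, -0.06 and -0.04. Rgs16 lay above that median by 0.58, 0.50, 1.23 and 0.76, on average 0.77 ± 0.33 (SD, n = 4 arrays). Of the others' fitted diet effects 3 were above and 5 below 0, with a median of -0.03, against 0.0059 over all features. The member next to Rgs16 was Rgs14, 0.68 lower on the log2 scale.

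**Figure D2:**
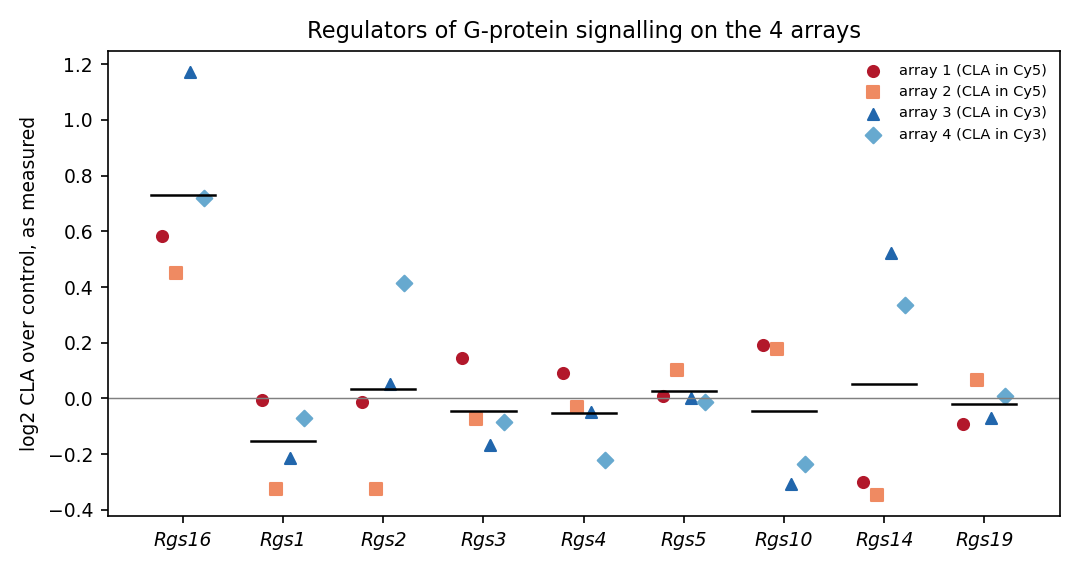
The log2 ratio of CLA over control as measured, for each member on each of the 4 arrays, with marker shape and colour giving array and dye orientation and a black line giving the fitted diet effect. The 4 points of Rgs16 lie between 0.45 and 1.17, and those of the other members between -0.35 and 0.52.

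Among the small regulators closest to Rgs16 in build, Rgs2 favours Gq and is known for limiting the contraction of blood vessels. Its ratios were -0.01, -0.32, 0.05 and 0.41 on arrays 1 to 4 (log2, as measured), so they fell on both sides of 0. Its normalized intensity was 117 to 165 with CLA and 103 to 160.1 with control, and the diet effect was 0.03 ± 0.08.

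Rgs4, known mostly from brain and heart, gave ratios of 0.09, -0.03, -0.05 and -0.22. Its diet effect was -0.05 ± 0.06, with normalized intensities of 101 to 149 with CLA and 95.2 to 154 with control. Rgs5, a marker of pericytes and vascular smooth muscle, had the most even values of the family. Its ratios were 0.0085, 0.10, 0.0027 and -0.01, its intensities 201 to 415 with CLA and 193 to 414 with control, and its diet effect 0.02 ± 0.06. The level of the Rgs5 probe differed between arrays far more than between diets on any array.

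Rgs1, which damps chemokine signals in lymphocytes, was the only member below 0 on all 4 arrays as measured, with ratios of -0.0050, -0.33, -0.21 and -0.07. Its array 1 value was close to 0, and the scanner's own log10 ratio there lay above 0, at 0.018. Of all features measured on 4 arrays, 4.71% were below 0 on all 4, and 4.6% above 0 on all 4, as Rgs16 was. Rgs1 was dim. Its CLA channel was well above background on 1 array and its control channel on 3 arrays. Normalized intensities were 63.1 to 72.1 with CLA and 69.3 to 79.1 with control, not far above the offset of 50 that is added to each value, and the diet effect was -0.15 ± 0.07. The offset shrinks ratios of such dim probes. With an offset of 10 the diet effect of Rgs1 was -0.36 ± 0.14, and with the scanner's processed signals -0.59 ± 0.23. Values smaller in size came from median centring, at -0.0058 ± 0.10, and from leaving the background in, at -0.03 ± 0.02. The size of the Rgs1 effect thus depended on the handling of background and on the normalization.

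Rgs3, whose longer isoforms carry a PDZ domain, was found through its accession, since the array describes the probe by an older gene name. Its ratios were 0.14, -0.08, -0.17 and -0.08, and its diet effect was -0.05 ± 0.06. Another probe, described in the files only as PDZ-RGS3 protein and therefore no member, stood at 0.09 ± 0.06.

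Rgs19, also called GAIP, acts on the Gi class. Its ratios were -0.09, 0.07, -0.07 and 0.01 and its diet effect -0.02 ± 0.06, with the control channel well above background on 3 arrays. Its intensities were 73.1 to 79.3 with CLA and 71.3 to 84.5 with control.

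Rgs10 and Rgs14 also favour Gi. Rgs10 is known from immune cells and brain, and Rgs14 adds a Ras-binding region and a motif that holds inactive Gi. For both, the sign of the ratio followed the dye. Rgs10 gave 0.19 and 0.18 where CLA was in Cy5, and -0.31 and -0.24 where it was in Cy3. Rgs14 gave -0.30 and -0.35 where CLA was in Cy5, and 0.52 and 0.33 where it was in Cy3. Their dye effects, 0.23 for Rgs10 and -0.38 for Rgs14 (log2 Cy5 over Cy3), were larger in size than their diet effects of -0.04 ± 0.06 and 0.05 ± 0.06. The arrays of 1 dye orientation alone would have given each of them a direction that the other orientation turned round. For Rgs16 the dye effect of -0.21 was smaller than the diet effect of 0.73.

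In order of diet effect the family ran Rgs16, Rgs14, Rgs2, Rgs5, Rgs19, Rgs10, Rgs3, Rgs4 and Rgs1. From Rgs14 to Rgs4 each step was smaller than the SE of either neighbour, so that order carries no weight. The step to Rgs1 was larger than either SE. The SE of 1 estimate is not that of a difference, however, and this step was not tested. The step of 0.68 from Rgs14 up to Rgs16 is the difference on which Rgs16 was chosen. The other members were dim beside their local background, with foreground signals of 1.08 to 2.15 times background with CLA and 1.09 to 2.47 times with control. For Rgs16 these were 2.01 to 2.68 with CLA and 1.47 to 2.14 with control. No member spot was saturated or flagged as an outlier.

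Rgs16 stayed above all 8 other members in the main setting and 14 alternatives. These 15 settings gave only 11 distinct sets of member estimates. Leaving out the dye term, the filter on dim probes or the choice of the brightest probe returned the main estimates, and the series matrix returned those of the scanner's processed signals. Over the alternatives it ranged from 0.40 to 0.85, and the other members ranged from -0.59 to 0.12 over all settings. The size of the dye effect differed between the dye orientations. Each array's slope against the mean Cy5 over Cy3 profile was 0.78 and 0.73 where CLA was in Cy5. It was 1.18 and 1.30 where CLA was in Cy3. The dye size thus ran with the orientation that codes the diet, so part of a gene's dye effect can enter its main diet effect. With that size made equal, Rgs16 stood at 0.68 ± 0.08 and the others had a median of -0.02. The limma adjusted p of Rgs16 was under 0.05 in 5 of the 14 alternatives and 0.05 or above in 9. It was 0.127 without background subtraction, 0.223 with equal spread between arrays and 0.328 with an offset of 10. With the scanner's processed signals it was 0.347, and without the dye term 0.978.

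**Figure D3:**
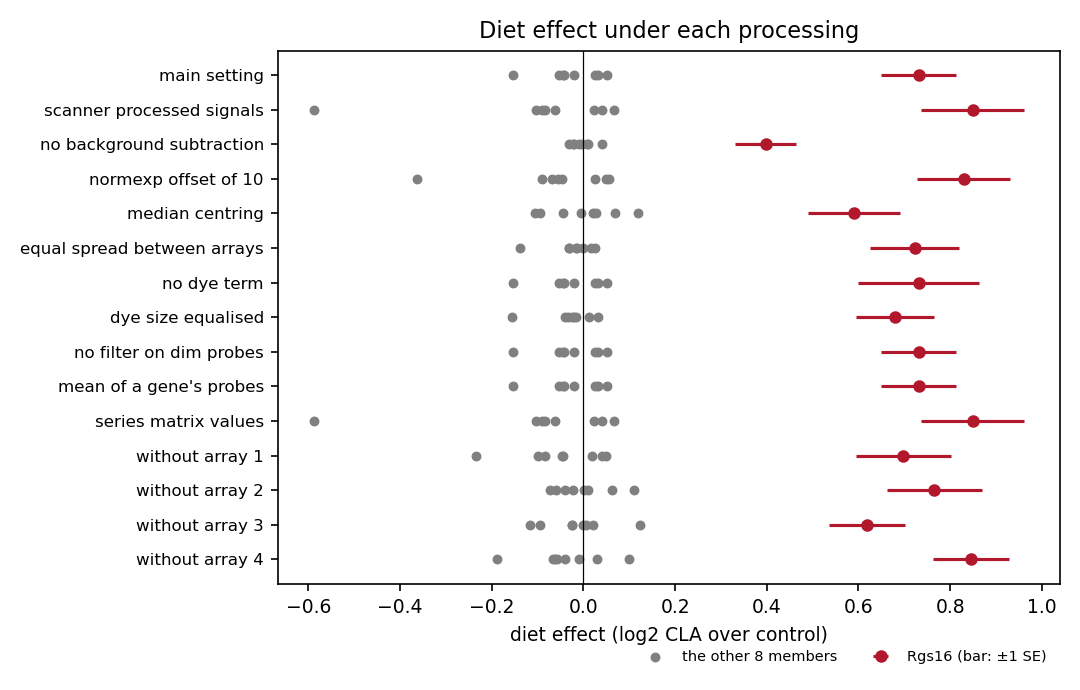
Diet effect (log2 CLA over control) of Rgs16 with its SE in red and of the other 8 members as grey points, under the main setting and each of 14 alternatives. Rgs16 lies between 0.40 and 0.85, to the right of every other member in each row.

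Further regulators on the array were no members but could be read from their symbols or descriptions. They were Rgs7, Rgs9, Rgs17, Rgs18 and Rgs20 by symbol, and unnamed probes described as regulators 6, 11 and 12. With the PDZ-RGS3 probe this made 9 tested probes, of which 7 lay above 0, against 52.2% of all features. With the dye size equalised Rgs7 (-0.01) and the regulator 6 probe (-0.03) fell below 0, and the others kept their sign. In the main setting the 9 probes ranged from -0.16 to 0.23. Of these probes 0 had a limma adjusted p under 0.05, where 0.0696% of all features did in either direction. The highest was the probe described as regulator 11 (0.23 ± 0.06, limma adjusted p = 0.178) and the lowest that described as a regulator 12 homolog (-0.16 ± 0.07, limma adjusted p = 0.314). Gde1, whose description on the array is a membrane protein that interacts with Rgs16, stood at 0.13 ± 0.08 (limma adjusted p = 0.418).

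In the gene order of the GRCm38.p6 RefSeq table, Rgs2, Rgs1 and Rgs18 lie within a few genes of each other, with Rgs13 and Rgs21 among them. The 3 tested there stood at 0.03, -0.15 and 0.05. Rgs4 and Rgs5 are direct neighbours and stood at -0.05 and 0.02.

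The other parts of the pathway were read from 6 lists of 136 genes, of which 90 were tested. Of these 55 lay above and 35 below 0, with a median of 0.03 (log2), against 52.2% above 0 and a median of 0.0059 over all features. In limma 0 of the 90 had an adjusted p under 0.05, where 0.0696% of all features did in either direction. At an unadjusted p under 0.05 there were 14, which is 15.6% of the 90, against 15.9% of all features. Over all 4 arrays as measured, 4 of 88 genes were above 0 throughout and 6 below.

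Of the alpha subunits that RGS proteins act on, 10 of 15 were tested, 7 above 0 and 3 below, with a median of 0.04. Gna12, an alpha subunit of the class named after it and Gna13, stood at 0.21 ± 0.06 (limma adjusted p = 0.170) and was above 0 on all 4 arrays (0.36, 0.37, 0.08 and 0.05). Gna11, of the Gq class, stood at 0.27 ± 0.08 (limma adjusted p = 0.188), and Gnaq, its close relative, at 0.12 ± 0.06 (limma adjusted p = 0.343). Gnai2, a Gi subunit, stood at 0.0025 ± 0.06. Gnat1, the rod transducin, stood at -0.15 ± 0.07 (limma adjusted p = 0.334).

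Of the beta and gamma subunits 13 of 17 were tested, 8 above 0 and 5 below, with a median of 0.03 that was -0.10 with median centring. Gng8 had the largest diet effect of the 6 lists above 0, 0.55 ± 0.10 (limma adjusted p = 0.078), from ratios of -0.14, 0.43, 1.10 and 0.82. With median centring it was 0.64 with an adjusted p of 0.0099. Gng4 stood at 0.14 ± 0.06 and Gnb1 at -0.12 ± 0.06 (limma adjusted p = 0.313 and 0.341).

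Of other proteins with an RGS domain, receptor kinases and arrestins 11 of 30 were tested, with 5 above 0, 6 below and a median of -0.03. The leading 3 by p were Rgs20 (0.15 ± 0.07), Grk5, a receptor kinase (-0.09 ± 0.06), and Grk1, a receptor kinase of the retina (-0.08 ± 0.07), with limma adjusted p = 0.373, 0.452 and 0.584. Rgs20 was measured on 3 arrays. With the dye size equalised Rgs20 stood at 0.09 and Grk5 at -0.02.

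Of effectors and second messenger enzymes 19 of 27 were tested, 12 above 0 and 7 below, with a median of 0.04. Pde4b, a cyclic AMP phosphodiesterase, was below 0 on all 4 arrays (-0.24, -0.43, -0.17 and -0.16) and stood at -0.25 ± 0.06 (limma adjusted p = 0.158). Pde4a, of the same enzyme family, stood at 0.19 ± 0.06 (limma adjusted p = 0.224), and Prkaca, the catalytic subunit of protein kinase A, at 0.20 ± 0.06 (limma adjusted p = 0.185). The sign of Prkaca followed the dye (-0.12, -0.16, 0.56 and 0.53), and with the dye size equalised it stood at 0.12. Plcb1, a phospholipase that Gq activates, stood at 0.25 ± 0.09 (limma adjusted p = 0.251). Its relatives Plcb2, Plcb3 and Plcb4 stood lower, at -0.10, 0.02 and 0.12.

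Of receptors 26 of 35 were tested, 16 above 0 and 10 below, with a median of 0.03. Avpr1a, the Gq-coupled vasopressin receptor of hepatocytes, had the most even ratios of the list's leading genes, -0.21, -0.21, -0.25 and -0.24 on arrays 1 to 4. It stood at -0.23 ± 0.06 (limma adjusted p = 0.158). F2r, a thrombin receptor, stood at 0.25 ± 0.09 (limma adjusted p = 0.251), from ratios whose sign followed the dye, and at 0.08 with the dye size equalised. Adra1a, an adrenergic receptor, stood at -0.12 ± 0.06 (limma adjusted p = 0.349). Gcgr, the glucagon receptor, stood at -0.0083 ± 0.06.

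Of the genes of glucose response around ChREBP, 11 of 12 were tested, 7 above 0 and 4 below, with a median of 0.03. Mlxipl, which encodes ChREBP, stood at -0.09 ± 0.06 (limma adjusted p = 0.457), and Txnip, a thioredoxin inhibitor that ChREBP induces, at 0.02 ± 0.06 (limma adjusted p = 0.885). G6pc, which frees glucose from its phosphate in liver, stood at -0.53 ± 0.07 (limma adjusted p = 0.053), Pklr, liver pyruvate kinase, at 0.38 ± 0.08 on 3 arrays (limma adjusted p = 0.127), and Khk, fructokinase, at 0.39 ± 0.09 (limma adjusted p = 0.142). The median of this list as measured was -0.27 and -0.15 on arrays 1 and 2 and 0.22 and 0.30 on arrays 3 and 4, and with the dye size equalised it was -0.01. G6pc had ratios of 0.09, 0.22, -1.09 and -1.36, so its sign followed the dye, and its dye effect of 0.69 was larger in size than its diet effect. With the dye size equalised G6pc stood at -0.37, Khk at 0.13 and Pklr at 0.24.

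**Figure D4:**
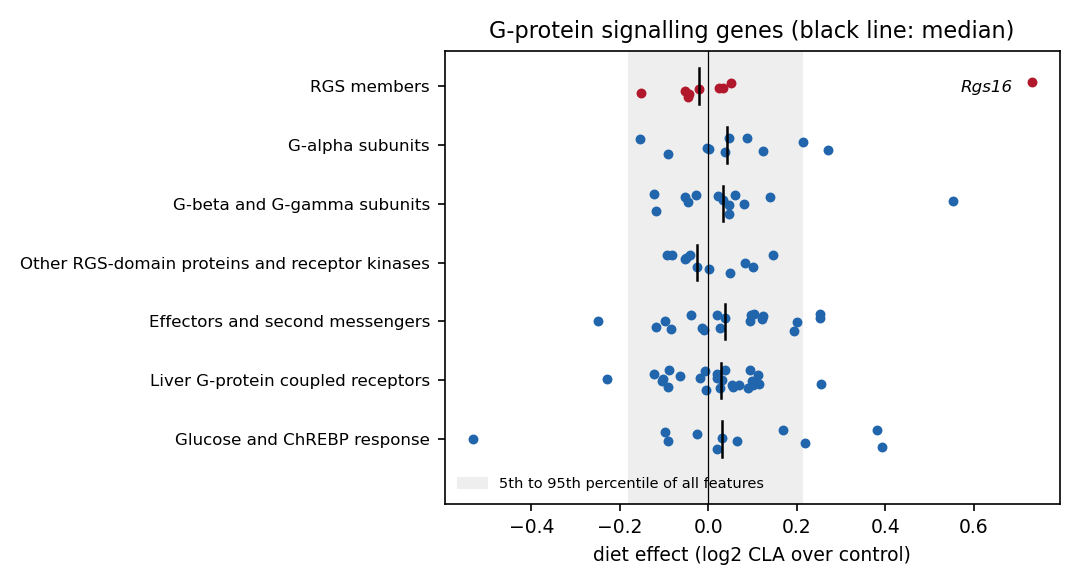
Diet effect (log2 CLA over control) of the 9 RGS members in red and of the tested genes of 6 pathway lists in blue, with list medians as black lines and the grey band giving the 5th to 95th percentile of all features (-0.18 to 0.21). Rgs16 at 0.73 lies outside the band, and the other 8 members, from -0.15 to 0.05, lie inside it.

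The genes whose pattern was most like that of Rgs16 were sought among 8930 named genes measured on all 4 arrays, by Euclidean distance over the 4 ratios as measured. All values come from the same 4 arrays. The nearest was Vnn1, a pantetheinase, at a distance of 0.35, with ratios of 0.48, 0.32, 1.15 and 0.41 and a diet effect of 0.59 ± 0.11. Rad51b, a recombination repair gene, followed at 0.48, with ratios of 0.20, 0.39, 0.99 and 0.94. The others were Auh, an enoyl-CoA hydratase of leucine breakdown (distance 0.53), Sprr1a, a protein of the cornified envelope (0.59), and Retsat, retinol saturase (0.67). All 5 shared with Rgs16 the highest value on array 3, which a search by distance to the Rgs16 ratios favours. Retsat was below 0 on array 1 (-0.06).

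**Figure D5:**
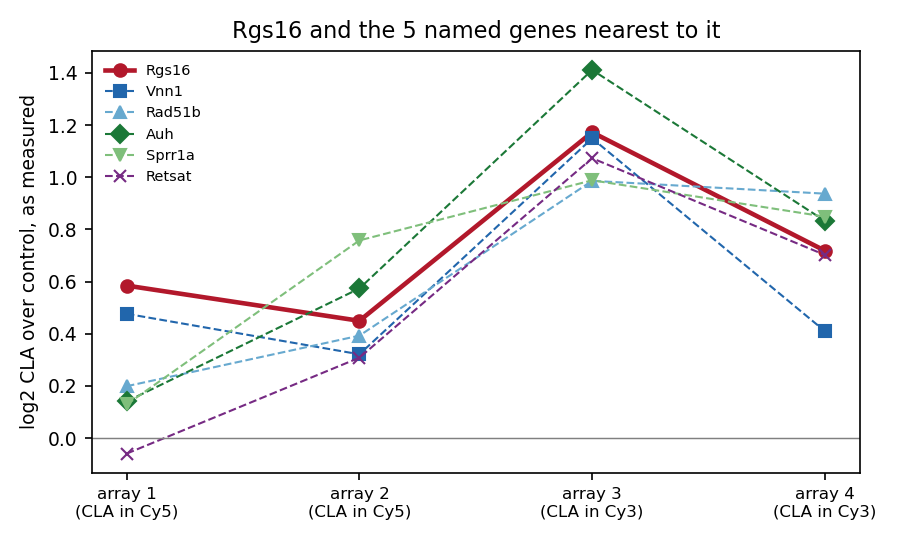
Ratio of CLA over control as measured (log2) on each array for Rgs16 (thick red line) and the 5 named genes at the smallest distance from it (dashed lines); lines join the values of 1 gene and imply no order of arrays. All 6 genes are highest on array 3, where Rgs16 stood at 1.17, a likeness that the choice by distance favours.

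Markers of other cells were read beside these values. Of exocrine pancreas markers 12 of 12 tested lay above 0, with a median ratio of 1.10 on array 4 and of -0.04 to 0.08 on arrays 1 to 3. Their summed normalized intensity was 2336 to 2868 with CLA on arrays 1 to 3 and 5201 on array 4, against 2155 to 2923 with control on all 4 arrays. Without array 4 Rgs16 stood at 0.84, and 5 of the 12 pancreas markers were above 0. Leukocyte markers, the cells in which Rgs1 and Rgs10 are known, lay above 0 for 8 of 15 tested (median 0.0032), with sums of 3655 to 5481 for CLA and 3065 to 5632 for control. Platelet and erythroid markers lay below 0 for 5 of 6 (median -0.15), with sums of 20207 to 51475 for CLA and 25995 to 58356 for control. Of endothelial markers 6 of 11 lay below 0 (median -0.0050), and of stellate cell, pericyte and smooth muscle markers, the setting of Rgs5, 7 of 11 lay above 0 (median 0.05). Adipocyte markers had 3 of 5 and cholangiocyte markers 4 of 4 above 0 (medians 0.06 and 0.05). With the dye size equalised these were 2 of 5 and 2 of 4 (medians -0.01 and 0.03). The part of any of these cells in the members' values was not tested. None of these markers had a limma adjusted p under 0.05, where 0.0696% of all features did. An unadjusted p under 0.05 was found for 9 of the 68 tested, against 15.9% of all features.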

How the data were processed

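The authors' deposited scanner files hold mean foreground and median local background intensity per spot and channel, processed intensity and a log10 ratio of Cy5 over Cy3, made with Agilent Feature Extraction A.6.1.1 per the file headers. A log10 ratio for every spot also stands in the deposited series matrix. Its slopes against the scanner's ratio were 1.00, 1.00, -1.00 and -1.00 in array order, which makes it CLA over control throughout. Its column medians were 0.0010, -0.0023, -0.0020 and -0.0011, and its making is not given in the sources read. The authors' deposited table of significant genes gives a ratio, a p-value, intensities and a signed fold change (a score equal to the ratio or minus its inverse), and its test is not named in it.

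Intensities were corrected with normexp (offset 50) and normalized by loess within each array, with the 1075 control spots at weight 0 and spots flagged as outliers set missing (limma 3.58.1, R 4.3.3). A probe was tested if well above background in 1 diet on at least 2 arrays and measured on at least 3. The brightest probe stood for a gene. Probes were named through accession (8947) or symbol, and 11513 stayed unnamed. Limma's moderated test was fitted to log2 Cy5 over Cy3 on all 20128 features with a dye term and the diet as +1 or -1, and Benjamini-Hochberg adjustment over all features (threshold 0.05). The fit was tested on simulated data in which a gene's dye effect was the same on every array. The unequal dye size of these arrays was not simulated, so that test does not bear on it. Arrays number 4, which limits precision.

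The members and lists were chosen with earlier results of these data known. The text names every member, the 5 nearest genes, and of each pathway list any called gene and the 3 smallest p-values. Other genes of the lists were named after their values were seen. Alternatives were other background corrections, centring, scaling, dye terms, filters, probe averaging, the series matrix and leaving out each array. The feature extraction of array 2 was run on another day than that of the others. Each array is a slide of its own. Probe sequences were not used here.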

Additional observations from a re-analysis of the deposited data

How the results depend on the processing

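Of the 14 alternatives, 3 returned the main member estimates and so could not move them. The series matrix repeated the estimates of the scanner's processed signals. The counts over alternatives given here include these repeats. Rgs16 kept its sign in all 14 alternatives. It was 0.40 without background subtraction, against 0.73 in the main setting, and within its spread between arrays in the other 13. Leaving out an array gave 0.62 to 0.84, and its adjusted p was 0.084 without array 1 and 0.123 without array 2. Among the changes of processing on all arrays, the limma adjusted p of Rgs16 reached 0.978, without the dye term. The feature extraction of array 2 alone was run on another day, and without array 2 Rgs16 stood at 0.77. Of 112 values of the other members, 10 moved by more than their spread, and their lowest adjusted p in any setting was 0.154.

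The count of 7 features higher and 7 lower was 0 and 0 with the scanner's processed signals, the series matrix values, no background subtraction, an offset of 10, equal spread between arrays, no dye term or the dye size equalised (limma, 293 to 3403 features at an unadjusted p under 0.05). With median centring 28 were higher and 113 lower. Without 1 array, 2 to 51 were higher and 0 to 20 lower. Without arrays 1, 2, 3 and 4 the counts were 27, 2, 51 and 51 higher and 8, 0, 12 and 20 lower. The cause was not tested. Of the pathway genes 2 were called with median centring, Gng8 and G6pc, and 0 to 1 without 1 array, G6pc without array 3. Each array already pairs a CLA pool with a control pool in its ratio. The fit to these ratios used that pairing. No further blocking was possible, because the dye orientations share no array numbers to block on. Most members lay close to background, where the offset shrinks ratios and a fall can be seen less far than a rise.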
